A study of Homo sapiens with 31 samples.

Results

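In RNA-seq libraries labelled as PANC-1, an established human pancreatic cancer line, 48 of 43682 genes were on in every actinomycin D library labelled NC and off in every one labelled as KHSRP knockout (KO). On meant at least 20 CPM (a gene's count as a share of the library's total, in parts per 1000000) in all 10 NC-labelled libraries, and off meant under 0.5 CPM in all 10 KO-labelled libraries. Genes whose symbols start with ITG, KRT, COL, LAM or CDKN2 were left aside, which removed COL15A1 and CDKN2A. The leading genes were FOLR1, the folate receptor alpha, MAOB, a monoamine oxidase, and TFPI2, a secreted protease inhibitor. Because the genes were chosen by these CPM values, the levels in the actinomycin D set are given as a description with no test of KO against NC.

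By their labels the libraries came from PANC-1 cells with a knockout of KHSRP, an RNA-binding protein that promotes decay of AU-rich mRNAs, and from PANC-1 cells named NC, whose genotype is given as WT. The actinomycin D set, which used a drug that blocks transcription to follow how long mRNAs last, held 2 libraries per label at each of 0, 2, 4, 6 and 8 h. The steady-state set, without a labelled drug, held 3 KO and 3 NC libraries. Whether the knockout was 1 clone or a pool is not stated in the labels, and nothing says that replicates were separate cultures. The p-values therefore cover library-to-library spread alone, and that spread may be technical. Libraries held 19177934 to 25114206 counts in the KO-labelled and 19645092 to 25768060 in the NC-labelled actinomycin D set, and 33706180 to 43278137 in the steady-state set. KHSRP itself stood at 134 to 164 CPM in KO-labelled and 406 to 434 CPM in NC-labelled actinomycin D libraries, and at 9.68 to 10.98 CPM in KO and 62.5 to 63.6 CPM in NC steady-state libraries. KHSRP was thus lower under the KO label within each set, but its level in the KO-labelled actinomycin D libraries was above that of the steady-state NC libraries, in tables made separately. The NC-labelled actinomycin D libraries also went against the steady-state NC libraries in genes well expressed in the steady state, SPINT2, PLAU, TFPI and SOX9, whose values are given with their lists. CDKN2A, one of the genes left aside, had 0 counts in each KO-labelled and 2728 to 5476 counts in each NC-labelled actinomycin D library. Whether the cells or the labels differed between the sets was not tested, so the actinomycin D libraries are named by their labels throughout.

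Genes that are silent in one cell type and strongly transcribed in another are often used to tell cell lines apart, since tissue-specific transcription factors and the methylation of CpG-rich promoters keep such genes on or off through many divisions. FOLR1 encodes a surface receptor held by a glycosylphosphatidylinositol (GPI) anchor. It takes up folate by endocytosis and is known for its abundance in ovarian and endometrial carcinomas. MAOB, on the outer mitochondrial membrane, oxidises dopamine and phenylethylamine and is abundant in glia and platelets. TFPI2 is a Kunitz-type inhibitor of plasmin and other serine proteases that was first described in placenta, and its promoter is known to be methylated in several cancers.

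Promoter sequences were available from RefSeq (GRCh38.p14) for 35 of the 48 genes, and FOLR1 was not among them. The 250 bases before the annotated start are shown for MAOB and TFPI2, as leading genes with CpG-rich promoters, and for CGA and LINC00473, a pair that behaved in opposite ways over the labelled times and whose promoters hold the core of the cAMP response element. In MAOB (chrX:43882451-43882700, minus strand) and TFPI2 (chr7:93890754-93891003, minus strand) capitals mark CpG dinucleotides. In CGA (chr6:87095107-87095356, minus strand) and LINC00473 (chr6:165988040-165988289, minus strand) capitals mark TGACG or its reverse complement CGTCA.
MAOB: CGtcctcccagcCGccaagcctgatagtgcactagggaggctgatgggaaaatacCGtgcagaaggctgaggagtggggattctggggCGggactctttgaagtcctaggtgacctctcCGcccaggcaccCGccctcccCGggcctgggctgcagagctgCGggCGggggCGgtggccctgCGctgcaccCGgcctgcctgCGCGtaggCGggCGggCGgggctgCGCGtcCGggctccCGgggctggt
TFPI2: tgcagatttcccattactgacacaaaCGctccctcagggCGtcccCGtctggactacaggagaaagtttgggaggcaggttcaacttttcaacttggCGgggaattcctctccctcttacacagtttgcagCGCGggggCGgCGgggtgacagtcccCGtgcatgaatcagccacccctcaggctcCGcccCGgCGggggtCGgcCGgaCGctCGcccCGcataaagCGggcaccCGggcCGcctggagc
CGA: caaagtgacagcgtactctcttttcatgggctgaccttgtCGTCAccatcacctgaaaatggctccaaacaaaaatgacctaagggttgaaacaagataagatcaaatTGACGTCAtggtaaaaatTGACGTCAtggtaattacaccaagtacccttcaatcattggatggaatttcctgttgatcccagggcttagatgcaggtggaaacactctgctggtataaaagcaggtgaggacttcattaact
LINC00473: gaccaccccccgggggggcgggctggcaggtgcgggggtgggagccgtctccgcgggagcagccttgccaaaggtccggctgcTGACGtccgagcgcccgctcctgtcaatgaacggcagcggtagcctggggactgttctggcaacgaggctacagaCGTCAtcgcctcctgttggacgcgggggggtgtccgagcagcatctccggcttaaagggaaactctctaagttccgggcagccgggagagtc
MAOB held 21 CpG at 72.0% GC and TFPI2 held 20 at 64.4% GC. CGA held the full element TGACGTCA at 2 places and LINC00473 at none.

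Over the 35 promoters the median was 19 CpG, against 11 over all 27305 RefSeq promoters of the same length and 22 over the 5227 promoters of genes that were on in all 10 NC-labelled libraries. Their median GC content was 66.0%, against 58.0% over all promoters and 65.6% over those of the NC-on genes. The 4 motifs counted, on both strands, were picked with the genes' values known. The TATA box TATAAA was in 6 of the 35 promoters (17.1%), those of AKR1C3, CGA, KCNK1, SMOC1, SPINK5 and SPON2, against 11.1% of all promoters and 4.44% of those of NC-on genes. The GC box GGGCGG was in 24 of 35 (68.6%), against 42.3% of all and 70.9% of NC-on promoters. TGACG was in 8 of 35 (22.9%), against 21.7% and 32.5%, and TGACGTCA, which contains it, was in CGA and MUC13 (5.71%), against 1.77% and 3.46%. A match is a match of letters and not a shown binding site.

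The 48 genes together made up 1.67 to 5.04 CPM in the KO-labelled actinomycin D libraries (34 to 111 counts per library) and 5803 to 6446 CPM in the NC-labelled ones (114213 to 160263 counts). Being on in all 10 NC-labelled libraries was met by 6324 genes (14.5% of 43682). Of these 50 (0.791%), with COL15A1 and CDKN2A included, were off in all 10 KO-labelled libraries, a share fixed by the rule. In bulk libraries fewer cells that express a gene and less of its RNA per cell cannot be told apart. The reverse rule, on in KO and off in NC, found 61 genes with no symbol left aside, to be set beside the 50. Single KO-labelled libraries gave from 0 to 11 counts of any of the 48 genes. A group of 7 genes, among them ALPI, GSTM1, MAGEB2, MUC13, BTBD6 and TMEM168, had 0 counts in all 10, which allows up to 0.0135 CPM (3 counts over the group). A further 7 genes had 1 to 3 counts in all, and 34 had more.

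**Figure D1:**
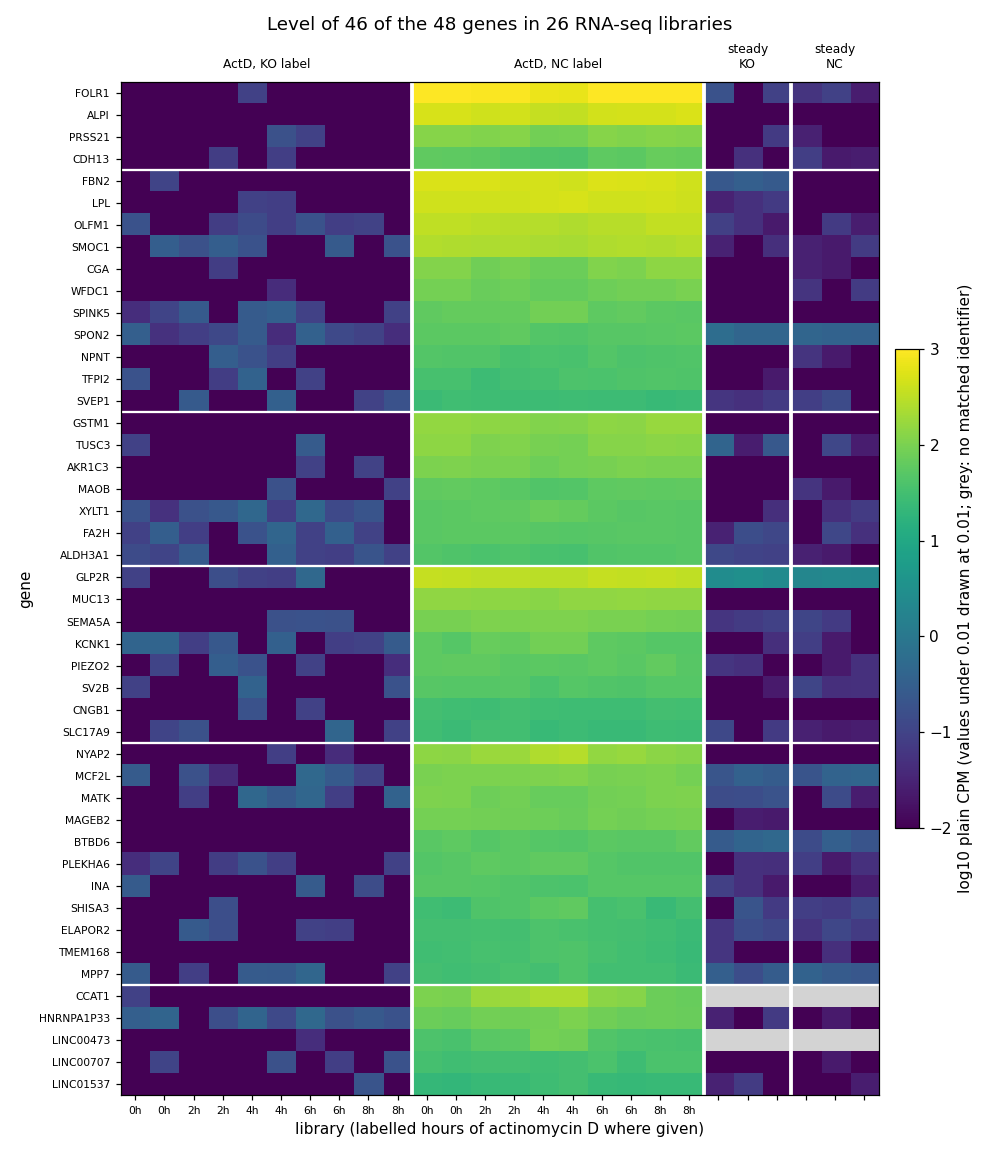
Heat map of log10 plain CPM for 46 of the 48 genes (rows, ordered by role from GPI-anchored proteins at the top to noncoding RNAs at the bottom, with white lines between roles) in 26 libraries (columns: actinomycin D KO, actinomycin D NC, steady-state KO, steady-state NC). The NC-labelled actinomycin D block is bright in all rows, and of the steady-state columns GLP2R is the brightest row, at 1.98 to 3.13 CPM. Grey cells are 2 genes with no matched steady-state identifier.

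At the thresholds the genes formed no gap. The members lowest in an NC-labelled library were SVEP1 at 23.6 CPM, SLC17A9 at 22.9 CPM and LINC01537 at 20.5 CPM, and the genes just outside were RSPO3 at 19.8 CPM, CPZ at 19.3 CPM and DNAH17-AS1 at 19.1 CPM. On the KO side, XYLT1, GLP2R, HNRNPA1P33 and MCF2L each reached 0.4998 CPM, from 11 counts, while C6orf223 at 0.512 CPM, PASD1 at 0.512 CPM and MBNL3 at 0.521 CPM lay outside.

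Per length, FOLR1 stood far above the rest. Its deposited RPKM (read count scaled by transcript length and library size) averaged 412 ± 85.3 over the 10 NC-labelled libraries and was at most 0.0388 in a KO-labelled one. The next genes were ALPI, an intestinal alkaline phosphatase, at 63.3 ± 9.06 RPKM, CGA, the common alpha subunit of the glycoprotein hormones, at 59.8 ± 15.2 RPKM, LPL, lipoprotein lipase, at 56.4 ± 1.59 RPKM, and GSTM1, a glutathione transferase, at 55.7 ± 8.78 RPKM (SD, n = 10 each, over times as well as replicates). ALPI, CGA, LPL and GSTM1 lay within their spread of each other. Of the 48 genes 21 averaged at least 10 RPKM, 26 lay between 1 and 10, and SVEP1, a large matrix protein gene, averaged 0.985 RPKM. ALPI, GSTM1, AKR1C3, MAGEB2 and the pseudogene HNRNPA1P33 have close copies in the genome, so reads may be shared with those copies and their levels are uncertain. SPON2 shared 12.6% of its exonic bases with LOC100130872 on the same strand, LINC00473 shared 20.1% with LINC00602 on the opposite strand and BTBD6 shared 6.13% with BRF1, and the labels and headers do not say how strand was used in counting.

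The steady-state libraries lacked nearly all of these transcripts, also under the NC label. Of the 48 genes 46 were matched to a steady-state identifier (CCAT1 and LINC00473 were not), and 43 of the 46 stayed under 0.5 CPM in all 6 libraries. Among all matched genes that were on in the 10 NC-labelled actinomycin D libraries, 92 of 6288 (1.46%) did so, the 43 included. These shares are not like for like. The rule asked the members to be under 0.5 CPM under the KO label, which 3 of the 6 steady-state libraries also carry, and the 6288 genes were not picked that way. ALPI, GSTM1, MUC13, AKR1C3, SPINK5, NYAP2 and CNGB1 had 0 counts in all 6, which allows up to 0.0128 CPM over the 6 libraries, and 6 more genes had 1 to 3 counts in all. No gene of the set reached 20 CPM in a steady-state library. Together the 46 genes summed to 6.23 to 6.55 CPM in the KO and 4.44 to 5.52 CPM in the NC steady-state libraries. The 61 genes of the reverse rule were all matched, and all 61 stood at 1 CPM or more in all 6 steady-state libraries. Of the 46 NC-on genes of the rule 1 did so. The share of all genes on under either label that did so was not counted, so these counts have no background beside them.

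FOLR1 had 0.178, 0 and 0.0940 CPM in the steady-state KO libraries and 0.0566, 0.0924 and 0.0251 CPM in the NC libraries, 10 counts in KO against 7 in NC. The KO and NC values overlapped. MAOB had 0 counts in all 3 KO libraries and 0.0566, 0.0231 and 0 CPM in the NC libraries, a total of 3 counts. TFPI2 had 0, 0 and 0.0235 CPM in the KO libraries, from 1 count, and 0 counts in all 3 NC libraries. For scale, 3 counts in a steady-state library equal 0.0693 to 0.0890 CPM.

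GLP2R, the receptor of the intestinal hormone glucagon-like peptide 2, was the exception at a low but measurable level. It had 2.73, 3.13 and 2.42 CPM in the steady-state KO libraries and 1.98, 2.17 and 2.03 CPM in the NC libraries. Every KO value lay above every NC value, yet the log2 difference of 0.33 (SE 0.16) did not pass the test (adjusted p = 0.1001, edgeR's quasi-likelihood test with Benjamini-Hochberg adjustment over 17240 genes). In the actinomycin D set the same gene was at 0 to 0.4998 CPM under the KO label and at 300.2 to 371 CPM under the NC label.

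The other genes with the highest steady-state levels included SPON2, BTBD6 and MCF2L. SPON2, a secreted matrix protein, had 0.423 to 0.623 CPM in KO and 0.351 to 0.425 CPM in NC libraries. BTBD6, an adaptor of a ubiquitin ligase, had 0.267 to 0.493 CPM in KO and 0.142 to 0.323 CPM in NC libraries, and MCF2L, a guanine nucleotide exchange factor, had 0.208 to 0.353 CPM in KO and 0.198 to 0.426 CPM in NC libraries. Only 6 of the 46 genes passed the filter on low counts (among them GLP2R, SPON2, BTBD6, MCF2L and MPP7). In edgeR and in DESeq2 0 of the 6 passed the test, where 50.6% of all tested genes did in edgeR. That share covers genes of every level past the filter and is not matched to these low counts. SPON2 had 56 counts in KO and 45 in NC libraries, BTBD6 46 and 27, and GLP2R 319 and 245. In edgeR none of the 6 had an unadjusted p under 0.05, and 1 did in limma on log2(TPM + 1). A p above the threshold does not show that KO and NC had the same level.

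FBN2, fibrillin 2 of the elastic microfibrils, was too low for that filter but uneven. It had 0.237, 0.328 and 0.259 CPM in the steady-state KO libraries, 32 counts in all, and 0 counts in each of the 3 NC libraries. With no filter on low counts, FBN2 (adjusted p = 5.89e-06) and TUSC3, an oligosaccharyltransferase subunit (adjusted p = 0.0463), were called higher in KO by edgeR's quasi-likelihood test, where 13.0% of 31116 genes were. TUSC3 had 25 counts in KO libraries and 6 in NC libraries, and 1 of its 3 KO libraries held a single count. In the actinomycin D set the direction of the levels was opposite for both genes, with at most 0.104 CPM of FBN2 under the KO label and 435 to 533 CPM under the NC label.

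**Figure D2:**
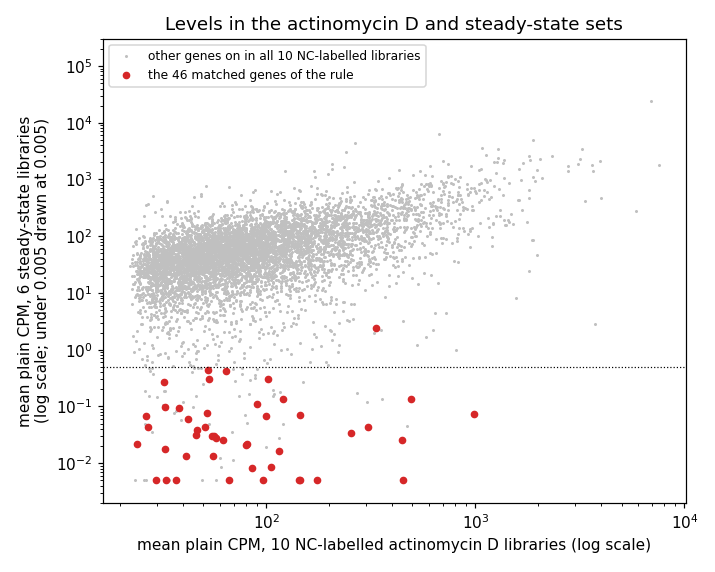
Mean plain CPM over the 10 NC-labelled actinomycin D libraries (x axis, log scale) against the mean over the 6 steady-state libraries (y axis, log scale, values under 0.005 drawn at 0.005) for genes on in all 10 NC-labelled libraries. The 46 matched genes of the rule (red) lie under the dotted line at 0.5 CPM except GLP2R, while most other NC-on genes (grey) lie above it.

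Within the NC-labelled libraries the time contrast was not used by the rule and could be tested. All 48 genes passed the filter there, and 39 of them differed among the 5 labelled times (edgeR's quasi-likelihood F test, adjusted over 16005 genes), against a background of 60.4% of all tested genes. By the rule every member was at 20 CPM or more in these libraries, a mark that 6324 genes reached. The 16005 tested genes include many at lower levels, where a change is harder to call. Shares among genes of like level were not counted, so this and the later shares of all tested genes are not matched for level. Not past it were HNRNPA1P33, MCF2L, LINC01537, SEMA5A, PLEKHA6, XYLT1, MPP7, ELAPOR2 and SVEP1. A straight line over the labelled hours was not past the test for any member or any other gene (0.0% of 16005 in edgeR, 0 also in DESeq2). At an unadjusted p under 0.05, 1.32% of all genes and 1 of the 48 had a slope, and that gene was TFPI2, at 0.06 log2 units per hour (SE 0.02).

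The libraries labelled 4 h stood apart. Of the 48 genes 43 had their highest (17) or lowest (26) mean CPM at 4 h, where 74.3% of all tested genes did, and 41 lay farthest from 0 h at 4 h, where 67.4% of all did. Against 0 h, 11 of the 48 were higher at 4 h and 28 were lower (edgeR, adjusted p under 0.05), while 30.3% of all tested genes were higher and 27.3% were lower. The members' median log2 change was -0.32 and that of all tested genes 0.02. At 2 h, 6 members were higher and 23 lower than at 0 h, against 19.2% and 17.2% of all genes, and at 6 h 1 was higher and 5 lower, against 3.76% and 1.51%. By 8 h, 4 members were higher and 1 was lower than at 0 h, against 1.79% and 2.07% of all genes. Contrasts of single times were added after the data had been seen.

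This direction depends on how libraries are scaled. Cytosolic ribosomal protein genes took 5.57% and 5.53% of the counts in the NC-labelled 0 h libraries and 4.06% and 4.04% in the 4 h libraries. Scaled to these genes, the median of all tested genes moved by 0.62, to 0.65, on the log2 scale, and 33 members were then higher and 4 lower at 4 h, with a members' median of 0.30, while 61.9% of all tested genes were higher and 1.22% lower. On the deposited log2 molecule scale 13 members were higher and 8 lower (limma), against 35.7% and 7.22% of the 15189 genes tested there. Under TMM 34 of the 48 lay below the median of all tested genes, a count that one factor per library cannot alter. TMM, edgeR's scaling by trimmed means, is used for the changes that follow, and the ribosomal protein scaling adds 0.62 to each 4 h change on the log2 scale.

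**Figure D3:**
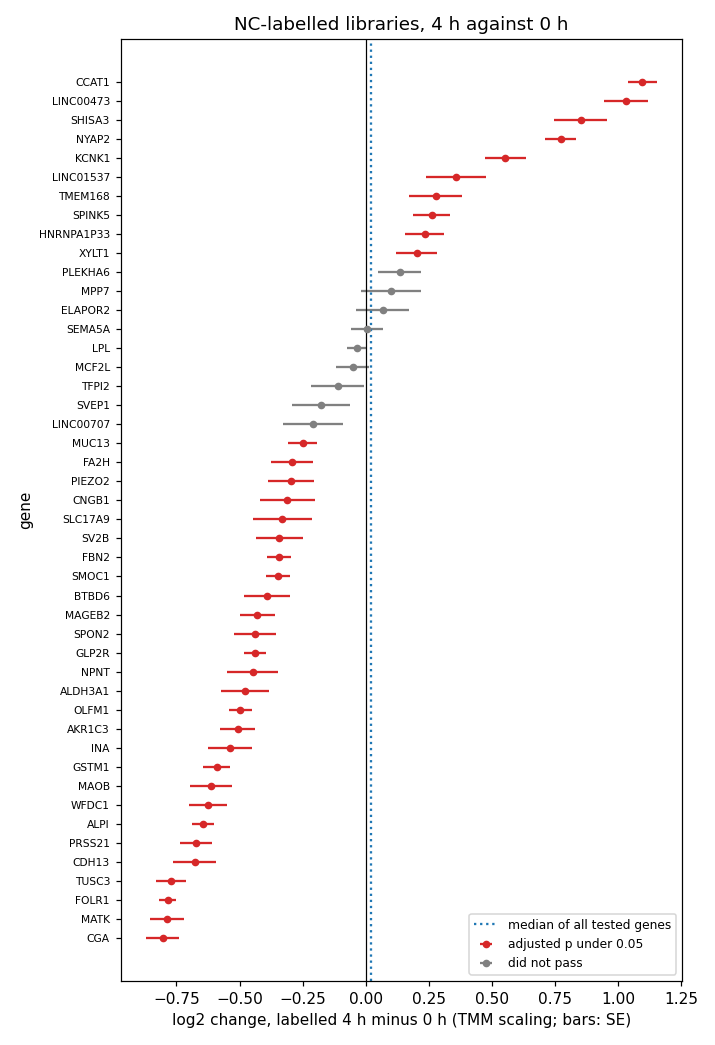
Log2 change from labelled 0 h to 4 h in the NC-labelled libraries (x axis, TMM scaling) with its SE (bars) for 46 of the 48 genes (y axis, sorted). CCAT1 at 1.09 and LINC00473 at 1.03 lie at the top, CGA at -0.80 and FOLR1 at -0.79 near the bottom, and the dotted line at 0.02 is the median of all tested genes.

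All 4 genes of GPI-anchored proteins were lower at 4 h by TMM scaling. For this and each count by role below, 30.3% of all tested genes were higher and 27.3% were lower by that scaling. FOLR1 (hg19 chromosome 11, 71900753 to 71907367, plus strand) had 1057 and 1088 CPM at 0 h, 917 and 942 CPM at 2 h, 713 and 687 CPM at 4 h, 1001 and 1021 CPM at 6 h, and 1209.8 and 1248 CPM at 8 h. The 4 h libraries were the lowest and the 8 h libraries the highest, with no overlap between times. Its log2 change was -0.79 at 4 h (SE 0.03, adjusted p = 2.56e-20) and 0.24 at 8 h (SE 0.03, adjusted p = 2.98e-05), both from edgeR. The 4 h change of FOLR1 was -0.16 (adjusted p = 0.00019, edgeR) with the ribosomal protein scaling and -0.53 (adjusted p = 0.279, limma) on the molecule scale, where the call was lost. ALPI (353 to 512 CPM) fell by 0.64 on the log2 scale at 4 h, PRSS21, the serine protease testisin, by 0.67, and CDH13, a cadherin without a cytoplasmic tail, by 0.68. CDH13 was at -0.05 with the ribosomal protein scaling and then did not pass (adjusted p = 0.630, edgeR).

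Of the 12 genes of secreted and matrix proteins 8 were lower at 4 h, 1 was higher and 3 did not pass. CGA had 116 and 117 CPM at 0 h, 83.6 and 92.2 CPM at 2 h, 74.6 and 75.7 CPM at 4 h, 112 and 102 CPM at 6 h, and 144 and 139.8 CPM at 8 h. It was lowest at 4 h and highest at 8 h, as FOLR1 was, with log2 changes of -0.80 (SE 0.07, adjusted p = 4.19e-13) and 0.33 (SE 0.06, adjusted p = 0.00158) in edgeR. With the ribosomal protein scaling the 4 h change of CGA was -0.18 (adjusted p = 0.0218, edgeR). WFDC1, a small secreted protein with a whey acidic protein domain, fell by 0.62, OLFM1, olfactomedin 1, by 0.50, and SMOC1, a calcium-binding matrix protein, by 0.35 on the log2 scale.

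TFPI2 (hg19 chromosome 7, 93514708 to 93520065, minus strand) took another course. It had 35.4 and 35.3 CPM at 0 h, 26.9 and 31.8 CPM at 2 h, 33.6 and 40.0 CPM at 4 h, 38.2 and 42.2 CPM at 6 h, and 44.8 and 42.8 CPM at 8 h. The 2 h libraries were lowest and the 8 h libraries highest. Its change was -0.11 at 4 h (SE 0.10, adjusted p = 0.390) and 0.35 at 8 h (SE 0.10, adjusted p = 0.0463, edgeR), and at 4 h it was 0.51 with the ribosomal protein scaling (adjusted p = 6.07e-05, edgeR). The sign at 4 h was not stable. Plain CPM averaged 35.4 at 0 h and 36.8 at 4 h, opposite to the TMM-scaled change, and that change was 0.0042 without replicate 1 and -0.25 without replicate 2 of the 4 h libraries. SPINK5, a Kazal-type inhibitor of skin proteases, was higher at 4 h by 0.26 (SE 0.07), with 85.3 and 86.5 CPM there and 53.6 to 66.3 CPM in the other libraries. That call was lost without replicate 1 of the 0 h libraries (adjusted p = 0.0825, edgeR). LPL stayed between 425 and 491 CPM. Its plain CPM was highest at 4 h, with a mean of 439 at 0 h and 482 at 4 h, while its TMM-scaled change at 4 h was -0.03 (SE 0.04, adjusted p = 0.477, edgeR). LPL passed the test over the 5 times (adjusted p = 0.00484, edgeR) and was lower at 2 h by this scaling (log2 -0.13, SE 0.04, adjusted p = 0.00664, edgeR).

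Among the 7 enzymes 6 were lower at 4 h and 1 was higher. MAOB (hg19 chromosome X, 43625857 to 43741696, minus strand) had 59.2 and 62.5 CPM at 0 h, 56.6 and 51.6 CPM at 2 h, 43.3 and 46.1 CPM at 4 h, 58.7 and 61.5 CPM at 6 h, and 57.8 and 59.7 CPM at 8 h. Both 4 h libraries were the lowest, and both 2 h libraries lay below every 0, 6 and 8 h library. The log2 change was -0.29 at 2 h (SE 0.08, adjusted p = 0.00380, edgeR) and -0.61 at 4 h (SE 0.08, adjusted p = 4.60e-08, edgeR), but the 4 h change was 0.01 (adjusted p = 0.923) with the ribosomal protein scaling. GSTM1 fell by 0.59 on the log2 scale and TUSC3 by 0.77. AKR1C3, an aldo-keto reductase of steroids and prostaglandins, ALDH3A1, an aldehyde dehydrogenase, and FA2H, which hydroxylates fatty acids of sphingolipids, were lower too. XYLT1, a xylosyltransferase that starts proteoglycan chains, was higher by 0.20.

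Of the 8 genes placed under receptors, channels, transporters and other membrane proteins 6 were lower at 4 h. GLP2R fell by 0.44 on the log2 scale, with 300.4 and 300.2 CPM at 4 h and 316 to 371 CPM in the other libraries. KCNK1, a potassium channel of the K2P family, went the other way, with 88.1 and 84.9 CPM at 4 h and 47.6 to 68.7 CPM in the other libraries, a log2 change of 0.55 (SE 0.08). SEMA5A, a semaphorin, did not pass. MUC13, a transmembrane mucin, PIEZO2, a mechanically gated channel, CNGB1, a cyclic nucleotide-gated channel subunit, SLC17A9, a vesicular nucleotide transporter, and SV2B, a synaptic vesicle protein, were lower by 0.25 to 0.34 on the log2 scale.

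The 12 genes placed under other intracellular proteins were split, with 4 higher, 4 lower and 4 that did not pass. SHISA3, TMEM168 and ELAPOR2 among them are membrane proteins as well, so the counts of this group and of the membrane group depend on that placing. SHISA3, whose mouse and frog relatives act on Wnt and FGF receptor maturation, had 29.8 and 27.3 CPM at 0 h, 42.4 and 43.0 CPM at 2 h, 55.6 and 60.2 CPM at 4 h, 33.5 and 36.0 CPM at 6 h, and 24.0 and 31.5 CPM at 8 h. The 4 h libraries were the highest, with a log2 change of 0.85 (SE 0.11, adjusted p = 1.23e-08, edgeR). Those higher also included NYAP2, a neuronal adaptor of PI3K, by 0.77 and TMEM168 by 0.28. MATK, a kinase that acts on Src family kinases, fell by 0.79, INA, a neuronal intermediate filament, by 0.54, MAGEB2, a cancer-testis gene, by 0.43 and BTBD6 by 0.39 on the log2 scale. MCF2L, MPP7, PLEKHA6 and ELAPOR2 did not pass.

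Of the 4 long noncoding RNAs and the pseudogene 4 were higher at 4 h, 0 were lower and 1 did not pass. CCAT1, a long noncoding RNA of colon cancer that is transcribed near MYC, had 102 and 101 CPM at 0 h, 180.0 and 183 CPM at 2 h, 241 and 246 CPM at 4 h, 134 and 123 CPM at 6 h, and 76.5 and 69.3 CPM at 8 h. It was highest at 4 h and lowest at 8 h, with log2 changes of 1.09 (SE 0.06, adjusted p = 3.34e-18) and -0.43 (SE 0.06, adjusted p = 2.57e-05) in edgeR. LINC00473, a noncoding RNA known to be induced through cAMP response element signalling, had 39.9 and 36.1 CPM at 0 h, 51.8 and 55.9 CPM at 2 h, 91.1 and 83.7 CPM at 4 h, 43.6 and 38.2 CPM at 6 h, and 36.1 and 35.7 CPM at 8 h. Its change at 4 h was 1.03 (SE 0.09, adjusted p = 1.26e-12, edgeR). LINC01537 was higher by 0.36 and HNRNPA1P33 by 0.23, though neither passed the test over the 5 times, and LINC00707 at -0.21 (SE 0.12, adjusted p = 0.134, edgeR) did not pass. LINC00707 was called lower without replicate 2 of the 0 h libraries (-0.33, adjusted p = 0.0464, edgeR) and stood at -0.08 without replicate 1. It was 0.42 with the ribosomal protein scaling (adjusted p = 0.00308, edgeR). Each of these values is a level relative to the rest of its library.

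**Figure D4:**
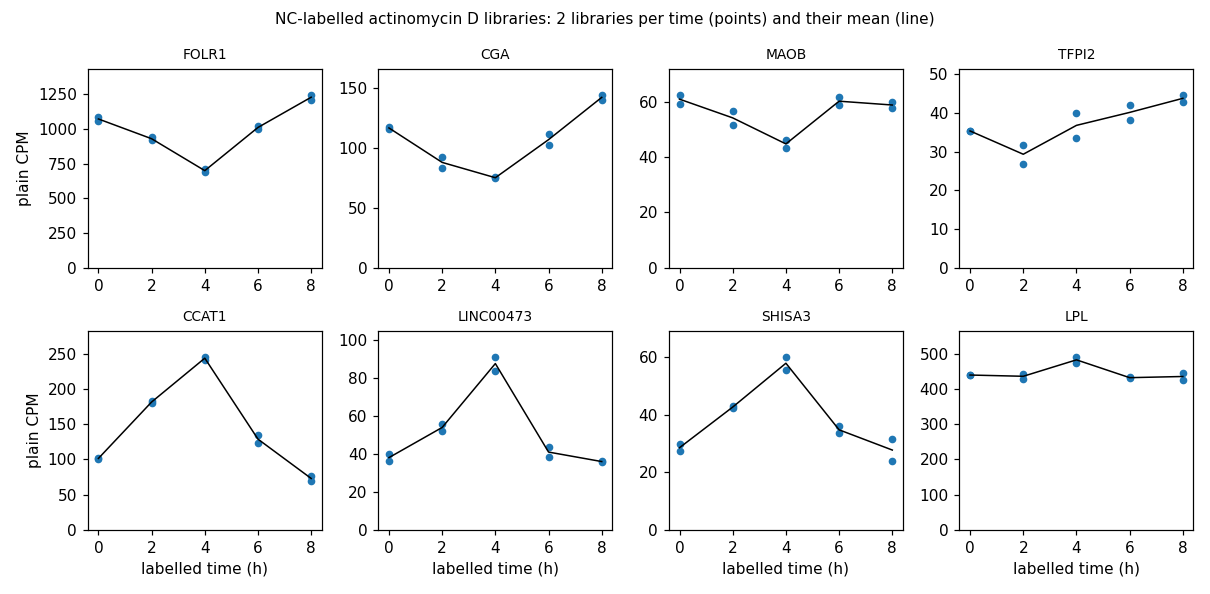
Plain CPM (y axis, from 0) of 8 genes over the labelled time in hours (x axis) in the NC-labelled actinomycin D libraries, with the 2 libraries per time as points and their mean as a line. FOLR1, CGA and MAOB are lowest at 4 h, CCAT1, LINC00473 and SHISA3 are highest at 4 h, TFPI2 is lowest at 2 h, and LPL stays between 425 and 491 CPM.

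In the genome the 48 genes were spread over many chromosomes, with 6 on chromosome 16 and 5 each on chromosomes 1 and 10. FOLR1 and LINC01537 lay 374333 bases apart on chromosome 11, and CDH13 and WFDC1 lay 494239 bases apart on chromosome 16, the only pairs within 1 Mb. Their median length was 3572.5 exonic bases, against 3967.5 over all genes that were on in the 10 NC-labelled libraries. Their median NC level was 61.1 CPM, against 72.6 CPM over those genes.

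No single tissue list was on as a whole in the NC-labelled libraries. Of 18 lists of tissue markers, 11 had at least 1 gene on in all 10 NC-labelled libraries, and at most 3 genes of a list were on. Over all 43682 genes 14.5% were on in those libraries. The 4 members on such lists were FOLR1 (ovary, oviduct and endometrium), MAOB (neural and glial cells), and TFPI2 and CGA (placental trophoblast). These 4 were on under the NC label by the rule itself, and 44 members were on no list. The lists were chosen with earlier results of these data known.

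The ovary, oviduct and endometrium list summed to 35.1 to 75.5 CPM in KO-labelled and 838 to 1414 CPM in NC-labelled actinomycin D libraries, and to 15.7 to 17.2 CPM in KO and 13.7 to 14.6 CPM in NC steady-state libraries. Of its 16 genes FOLR1 and MSLN, the surface protein mesothelin, were on in the NC-labelled libraries, and 5 were off in all 10. WFDC2 was among these 5, with 0 counts in all 10. In the KO-labelled libraries 0 of the 16 were on and 8 were off. FOLR1 alone gave 687 to 1248 CPM of the NC-labelled sum. It was chosen by the rule, so the gap between the actinomycin D sums was largely fixed by the rule. MSLN was at 2.45 to 6.49 CPM in KO-labelled and 73.6 to 142 CPM in NC-labelled libraries, and at 1.06 to 1.41 CPM in KO and 0.677 to 0.924 CPM in NC steady-state libraries. The transcription factors on this list were uneven. PAX8 reached at most 0.274 CPM in KO-labelled and 2.29 CPM in NC-labelled libraries, WT1 reached at most 12.3 CPM in KO-labelled and 0.0890 CPM in NC-labelled libraries, and PAX2 and EMX2 had 0 counts in all 10 NC-labelled libraries. SOX17 had 0 counts in all KO-labelled and at most 3.92 CPM in NC-labelled libraries, and ESR1 reached at most 0.213 CPM in KO-labelled and 2.39 CPM in NC-labelled ones. HOXA10 and HOXA11, homeobox genes of the uterus, were higher but not on in every library, with HOXA10 at most 0.0800 CPM in KO-labelled and at 12.99 to 34.8 CPM in NC-labelled libraries, and HOXA11 at most 0.682 CPM in KO-labelled and at 5.47 to 35.1 CPM in NC-labelled ones.

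The placental list summed to 12.6 to 77.7 CPM in KO-labelled and 167 to 284 CPM in NC-labelled libraries. TFPI2, CGA and the transcription factor TFAP2A were on under the NC label. TFPI2 (26.9 to 44.8 CPM there) and CGA (74.6 to 144 CPM) were chosen by the rule, so much of this gap was fixed by it. CGB5, a beta subunit of chorionic gonadotropin and so the partner of CGA in that hormone, reached at most 0.232 CPM in KO-labelled and 0.0780 CPM in NC-labelled libraries. CSH1, placental lactogen, reached at most 0.0430 CPM in KO-labelled libraries and had 0 counts in all 10 NC-labelled ones. The neural and glial list summed to 248 to 284 CPM in KO-labelled and 145 to 188 CPM in NC-labelled libraries, with SYT1 and TUBB3 on in KO-labelled and MAOB and TUBB3 on in NC-labelled libraries. GFAP, the astrocyte filament, had a median of 0.612 CPM in KO-labelled and 0.652 CPM in NC-labelled libraries.

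The squamous epithelium list was carried by 1 gene, TRIM29, at 0.256 to 1.71 CPM in KO-labelled and 211 to 317 CPM in NC-labelled libraries, while SPRR1A, SPRR1B, SPRR2A, SERPINB4 and SERPINB13 had 0 counts in all 20. In the fibroblast list FBN1, fibrillin 1, was at 2.45 to 4.03 CPM in KO-labelled and 175 to 209.9 CPM in NC-labelled libraries. In the kidney list GGT1, a glutamyl transferase, was at 2.03 to 6.03 CPM in KO-labelled and 59.1 to 85.5 CPM in NC-labelled libraries. The endothelial list had ESAM and ENG on under the NC label, the melanocyte list MITF, the pluripotency list SALL4, and the cancer-testis list MAGEA1, MAGEA3 and PRAME, where MAGEA3, MAGEA6 and PRAME were on under the KO label and in the steady-state libraries. The acinar, endocrine, hepatocyte, lung, intestinal, breast and prostate, and blood lists had 0 genes on in the NC-labelled libraries. ALPI and MUC13, members of the rule that are known from the intestine, are not on the intestinal list, so its count of 0 leaves them out.

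The pancreatic duct and PANC-1 lineage list summed to 45.7 to 182 CPM in KO-labelled and 82.7 to 147 CPM in NC-labelled actinomycin D libraries, and to 55.4 to 62.4 CPM in KO and 80.1 to 85.99 CPM in NC steady-state libraries, so the NC sums of the sets overlapped. Of its 14 genes 0 were on in KO-labelled libraries, ONECUT2 was on in NC-labelled ones, and SOX9 was on in the steady-state libraries of both labels. SOX9, a ductal transcription factor, was at 15.4 to 156 CPM in KO-labelled and 0.0780 to 3.44 CPM in NC-labelled actinomycin D libraries, and at 50.2 to 56.6 CPM in KO and 70.2 to 75.1 CPM in NC steady-state libraries. ONECUT2, another factor of the duct list, was at 1.52 to 5.54 CPM in KO-labelled and 44.5 to 105 CPM in NC-labelled libraries, and at 1.27 to 2.02 CPM in KO and 4.25 to 5.09 CPM in NC steady-state libraries. In both genes the NC-labelled actinomycin D libraries stood apart from the steady-state NC libraries. The source of this difference between the sets was not tested.

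**Figure D5:**
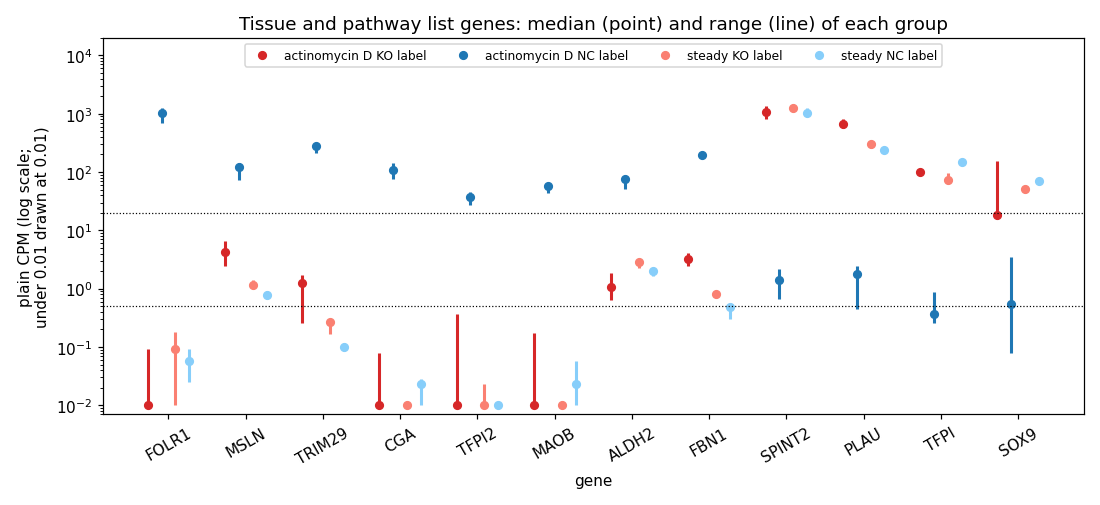
Plain CPM (y axis, log scale, values under 0.01 drawn at 0.01) of 12 genes from the tissue and pathway lists, with the median (point) and range (line) of the actinomycin D KO, actinomycin D NC, steady-state KO and steady-state NC libraries from left to right. Dotted lines mark 0.5 and 20 CPM. FOLR1, MSLN, TRIM29, CGA, TFPI2, MAOB, ALDH2 and FBN1 are high in the NC-labelled actinomycin D libraries alone among these groups, and SPINT2, PLAU, TFPI and SOX9 are low in them alone.

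The pathways of the 3 leading genes were followed in their other members. In folate uptake and use, 14 of 22 genes were on in all KO-labelled and 16 in all NC-labelled actinomycin D libraries, so the enzymes of the pathway were largely shared. SLC19A1, the reduced folate carrier and the other main route of uptake, was at 169 to 233 CPM in KO-labelled and 51.3 to 65.4 CPM in NC-labelled libraries, opposite to FOLR1. SLC46A1, the proton-coupled folate transporter, was at 14.8 to 23.3 CPM in KO-labelled and 44.7 to 75.2 CPM in NC-labelled libraries. The sister receptors FOLR2 and FOLR3 reached at most 0.178 CPM in any of the 20 libraries. At 4 h 2 of 18 tested genes of the list were higher than at 0 h and 11 were lower in the NC-labelled libraries, against 30.3% and 27.3% of all tested genes. The 11 include FOLR1 itself, a member of the rule, with GGH at -0.73, SHMT2 at -0.54 and TYMS at -0.47 on the log2 scale. In the steady state 8 of 17 were higher and 3 were lower in KO than in NC, against 24.4% and 26.3% of all tested genes, with TYMS, the thymidylate synthase, at 255 to 265 CPM in KO and 175 to 184 CPM in NC (log2 0.45, SE 0.07, adjusted p = 0.000519, edgeR).

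In monoamine handling, MAOA, the paralog of MAOB, was low in every group. It stood at 0.0430 to 0.574 CPM in KO-labelled and 0.255 to 1.16 CPM in NC-labelled actinomycin D libraries, and at 1.10 to 1.25 CPM in KO and 0.347 to 0.651 CPM in NC steady-state libraries (log2 1.26, SE 0.29, adjusted p = 0.00486, edgeR). ALDH2, which clears the aldehydes that monoamine oxidases make, was at 0.636 to 1.84 CPM in KO-labelled and 52.1 to 78.8 CPM in NC-labelled libraries, and ALDH3A2 was at 63.2 to 76.1 CPM in KO-labelled and 159.6 to 196 CPM in NC-labelled ones. At 4 h 0 of 11 tested genes were higher and 6 were lower, among them MAOB, ALDH2, ALDH3A2, HNMT and AOC2, against 30.3% and 27.3% of all tested genes. In the steady state 3 of 8 were higher in KO and 1 was lower, against 24.4% and 26.3% of all tested genes.

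Of the 17 genes of Kunitz-type inhibitors and the tissue factor pathway 6 were on in KO-labelled actinomycin D libraries (TFPI, SPINT2, APP, APLP2, PLAU and PROCR) and 4 in NC-labelled ones (TFPI2, APP, APLP2 and PROCR). APP and APLP2, membrane proteins with Kunitz-domain isoforms, were thus on under both labels. TFPI, the main inhibitor of tissue factor, was at 91.2 to 113 CPM in KO-labelled and 0.262 to 0.879 CPM in NC-labelled libraries, and SPINT2, an inhibitor of hepsin-like proteases, was at 822 to 1362 CPM in KO-labelled and 0.669 to 2.18 CPM in NC-labelled ones. PLAU, urokinase, was at 558 to 825 CPM in KO-labelled and 0.449 to 2.40 CPM in NC-labelled libraries. In the steady-state libraries all 3 were present under both labels. SPINT2 was at 1145 to 1273 CPM in KO and 1042 to 1244 CPM in NC, PLAU at 258 to 316 CPM in KO and 231 to 251 CPM in NC, and TFPI at 64.6 to 97.7 CPM in KO and 135 to 149.96 CPM in NC (log2 -0.96, SE 0.14, adjusted p = 0.000386, edgeR). At 4 h 2 of 13 tested genes of the list were higher than at 0 h in the NC-labelled libraries, F3 and THBD, and 3 were lower, APP, APLP2 and PROCR, against 30.3% and 27.3% of all tested genes.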

How the data were processed

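RNA-seq tables of 26 libraries labelled as PANC-1 were used, and 5 miCLIP and PAR-CLIP samples were not analysed here. Per the submitters' processing notes, Bowtie2, STAR, RSEM, deepTools and hg19 were used, without versions or roles; the labels and headers give no annotation, counting tool or strand setting. The steady-state tables hold the authors' expected counts and TPM for 58037 identifiers, per the file headers. The deposited actinomycin D tables hold counts, RPM, RPKM and log2 molecule values of the authors for 43682 genes, per the file headers. Plain CPM is a count over the library's total. The deposited RPM values were lower than plain CPM by one factor per library.

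Expected counts were rounded, since 10.25% were not whole, and 45 pseudoautosomal copies were added to their partners. Symbols were updated from reference gene tables (419 of 43682 changed). Tests used edgeR 4.0.16 in R 4.3.3 (filterByExpr, TMM, robust quasi-likelihood F test, Benjamini-Hochberg 0.05) on all genes: KO against NC in 6 steady-state libraries, and labelled time in the 10 NC-labelled libraries. DESeq2 1.42.0, limma 3.58.1 on log2(TPM + 1) or the molecule scale, other scalings, filters and left-out libraries were alternatives. The script was tested on simulated data. Single values of some genes are not reported here. An SE is the absolute log2 change over the square root of F, and count intervals and floors cover counting error only.

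The genes, their roles, the 21 gene lists (18 tissues, 3 pathways) and the motifs were chosen with earlier results of these data known. Genes named with full values were FOLR1, MAOB and TFPI2, the 12 highest by RPKM, those on a list, the 5 lowest and 5 highest slopes among genes past the F test, the 5 highest in the steady state, and the 3 nearest to each threshold. Other named members and FBN2 and TUSC3 in the steady state were chosen after their values were seen. Same-numbered libraries did not deviate together (correlations -0.11 to 0.06 in the steady state and -0.02 to 0.06 between NC times), so numbers were not treated as pairs. No replicate pair agreed within sampling noise (chi-square per degree of freedom 3.81 to 42.8 in the steady state and 3.90 to 5.30 in the actinomycin D set).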

Additional observations from a re-analysis of the deposited data

How the results depend on the processing

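The rule gave 48 genes. It gave 90 with on at 10 CPM (the 48 included), 26 with on at 50 CPM and 16 with off below 0.1 CPM, and 48 to 50 when each library was left out. With the deposited RPM in place of plain CPM it also gave 48 genes, of which 29 were shared. In the steady state 0 genes of the set were called. The count was 2 with no filter on low counts (FBN2 and TUSC3) and 0 to 1 when each library was left out, where the 1 was FBN2 without KO replicate 1 or without NC replicate 1, 2 or 3. Over the 5 labelled times 39 genes were called, with 31 in a fit over all 20 libraries, 48 on the molecule scale and 34 to 40 when each library was left out. For the slope 0 were called, but 43 were lower with time on the molecule scale. Of all genes on that scale 7512 of 15189 were called for the slope and 12539 of 15189 over the 5 times. The median of that scale over genes ran from 19.3 at 0 h and 20.1 at 4 h to 18.1 at 8 h. In the fit over all 20 libraries 9683 of 17715 genes were called over the 5 times. The slope count stayed at 0 to 0 when each library was left out. Without the 0 h libraries 24 members and 5586 of all 15848 tested genes reached an unadjusted p under 0.05 in edgeR. At 4 h against 0 h 39 were called (11 higher, 28 lower), 21 on the molecule scale, 29 with all 20 libraries and 34 to 39 when each library was left out. With the ribosomal protein scaling of 74 genes MAOB was at 0.0106, TFPI2 at 0.51 and LINC00707 at 0.42, the opposite sign to TMM. FOLR1 was at -0.16 and CGA at -0.18 with that scaling. On the molecule scale the change of FOLR1 was -0.53 (adjusted p = 0.279, limma). The replicate block gave 0 steady-state calls, 39 over the 5 times, 0 slopes and 39 at 4 h, so it changed no count. Of the list genes 40 were on at 20 CPM in the NC-labelled libraries, where 14.5% of all 43682 genes were, and 55 at 5 CPM. The folate list held 16 of the 40, and 14 of these 16 were on under the KO label too. The different genes over all lists and the share of all genes at 5 CPM were not counted, so neither count has a like share beside it. The cause of these differences was not tested. In the steady state 7 of the genes had 0 counts and 6 had 1 to 3 in all, in libraries that were deeper than those of the actinomycin D set.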

Other observations

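Low counts of the actinomycin D tables were more often even than odd. Of the values from 1 to 10 counts over all genes, 63.9% were even in the KO-labelled libraries and 62.0% in the NC-labelled libraries, against 41.1% of the rounded expected counts in the steady-state tables. For the 48 genes in the KO-labelled libraries 136 of 160 such values (85.0%) were even. Counting intervals and floors treat each count as independent, which these values do not show.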
